A study of Mus musculus with 12 samples.

Results

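Il10, Ebi3, Areg, Fgl2 and Penk are 5 genes whose secreted or cell surface products allow regulatory T cells (Treg) to act on other cells. They were chosen by gene name, and all 5 were found among the 41457 genes listed for each of 12 RNA-Seq libraries. The libraries were made from CD4+ T cells of mouse spleen that carried a red fluorescent protein (RFP) and were sorted on it. In CD18Foxp3 mice a Foxp3Cre allele removes floxed Itgb2, the gene of the β2-integrin chain CD18, from cells that express Foxp3. CD18wt mice were littermates with unmodified Itgb2 that also carried Foxp3Cre, so Cre and the RFP reporter were common to both genotypes. Sorted cells of each genotype were kept overnight either in recombinant human IL-2 alone (5 U/ml, unstimulated) or in IL-2 with antibodies to CD3 (1 µg/ml) and CD28 (2 µg/ml, stimulated). Each of these 4 groups held 3 libraries labelled as biological replicates. Mice were matched for age and sex, but the labels give neither, nor do they say whether an unstimulated and a stimulated library came from the same mouse. The p-values below measure the spread between these libraries.

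Treg restrain immune responses partly through soluble products. Interleukin 10, encoded by Il10, signals through the receptor chains IL-10Rα and IL-10Rβ and dampens macrophages, dendritic cells and T cells. Ebi3 encodes a subunit that pairs with a second chain to form IL-27 or IL-35. Amphiregulin, encoded by Areg, is a ligand of the epidermal growth factor (EGF) receptor that Treg in tissues use in repair, while Fgl2 encodes a fibrinogen-like protein that binds Fcγ receptors. Penk encodes proenkephalin, the precursor of the enkephalins, which act on opioid receptors.

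The libraries held 10665174 to 19005482 exon reads. Itgb2 served as a check of the labels. It stood at 428 ± 39.2 TPM in CD18wt and 240 ± 15.0 TPM in CD18Foxp3 Treg without stimulation, and at 330 ± 1.16 and 172 ± 36.7 TPM with it (SD, n = 3 each). The log2 fold changes between genotypes were −0.85 (adjusted p = 0.00408, edgeR) and −0.94 (adjusted p = 0.216). The unstimulated difference passed the threshold given below, but not in a fit over all 12 libraries. Nor did it pass without replicate 2 of CD18wt or replicate 1, 2 or 3 of CD18Foxp3, where no gene was called lower. TPM are reads divided by exon length and scaled to the same sum in every library, and these Itgb2 values cover the whole gene rather than the deleted stretch. The cells carried Treg markers, with Foxp3 at 73.4 to 207 TPM and Cd4 at 279 to 657 TPM over the 12 libraries. Among markers of other cells, Ms4a1 of B cells (0 to 0.557 TPM), Csf1r of macrophages (0 to 0.403 TPM) and Flt3 of dendritic cells (0 to 0.117 TPM) were near 0. Others of these lists were not, such as Cd79b (8.17 to 29.2 TPM), Cd22 (0.282 to 10 TPM), Lyz2 (0 to 15.6 TPM), Cd8b1 (12.5 to 30.4 TPM), Prf1 (0.809 to 18.3 TPM) and Klrb1c (0 to 5.32 TPM). Cd8a, listed with Cd8b1, stood at only 0 to 1.21 TPM. In bulk RNA, fewer cells that express a gene and less RNA of that gene per cell cannot be told apart.

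All 5 genes lie where the GENCODE annotation of the same build, GRCm38, places them. Il10 (ENSMUSG00000016529) spans 131019845 to 131024974 on chromosome 1, and Ebi3 (ENSMUSG00000003206) spans 55952640 to 55957022 on chromosome 17. Areg (ENSMUSG00000029378, 91139599 to 91148432) and Fgl2 (ENSMUSG00000039899, 21372642 to 21378374) are both on chromosome 5. Penk (ENSMUSG00000045573, 4133531 to 4138819) is on chromosome 4 and is read from the minus strand, while the others are read from the plus strand. Every exon read of Il10, Areg and Fgl2 was placed uniquely, as were 98.9% of those of Penk and 84.7% of those of Ebi3. Ebi3 shares 14.4% of its 59-base words, the length of a read, with the antisense gene Gm16712, which crosses its end on the other strand and held 0 to 53 exon reads. Penk shares 7.51% of its words with A830012C17Rik, which crosses its start on the other strand (3 to 31 exon reads). Whether strand was used in counting is not given in the sources used here, so reads in these stretches may belong to either gene.

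The RefSeq promoter table of GRCm38.p6 held 3 of the 5 genes, Areg, Fgl2 and Ebi3. Antigen receptor signals are known to reach the nucleus through AP-1, CREB and NFAT factors, and the promoters were therefore searched on both strands for TGANTCA (AP-1), TGACGTCA (the cyclic AMP response element), GGAAA (the NFAT core) and TATAAA (the TATA box). None of these motifs contains another. The Areg and Fgl2 promoters are shown because each held an AP-1 or cyclic AMP element. Both run from 250 bases before to 50 bases after the annotated start on the plus strand, and capitals mark matches to the AP-1, cyclic AMP and TATA motifs.
Areg, chr5:91139349-91139648: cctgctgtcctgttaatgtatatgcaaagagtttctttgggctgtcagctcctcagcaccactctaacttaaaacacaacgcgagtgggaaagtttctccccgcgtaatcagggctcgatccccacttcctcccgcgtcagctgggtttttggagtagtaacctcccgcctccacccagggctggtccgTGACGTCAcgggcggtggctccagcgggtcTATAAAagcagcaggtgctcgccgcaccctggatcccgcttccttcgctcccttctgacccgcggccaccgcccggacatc
Fgl2, chr5:21372423-21372722: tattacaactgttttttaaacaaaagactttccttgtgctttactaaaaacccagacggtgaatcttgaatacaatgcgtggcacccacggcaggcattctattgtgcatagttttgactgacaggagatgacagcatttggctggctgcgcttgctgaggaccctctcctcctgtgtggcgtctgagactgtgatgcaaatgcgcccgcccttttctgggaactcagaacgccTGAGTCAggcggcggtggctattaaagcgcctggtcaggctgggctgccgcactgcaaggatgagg
The Areg promoter held 1 cyclic AMP element that began 61 bases before the start, and a TATA box 31 bases before it. The Fgl2 promoter held 1 AP-1 match, 16 bases before the start. The RefSeq start of Fgl2 lies downstream of the first base of the span given above, so that this match falls within that span. Among all 32851 promoters of this length, 1.79% held the cyclic AMP element, 7.81% the AP-1 motif and 13.6% the TATA box. GGAAA was found in all 3 promoters, Ebi3 included, and in 61.3% of the whole table, while the Ebi3 promoter held none of the other motifs. These matches are descriptions of the letters and not evidence of binding.

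Penk was the most abundant of the 5 genes in every library and Areg was the lowest or next to lowest. Per length, Penk ranged from 129 to 961 TPM, Ebi3 from 30.6 to 83.6, Fgl2 from 9.22 to 46.3, Il10 from 7.15 to 180 and Areg from 3.92 to 21.1 TPM. In unstimulated Treg of either genotype the order of the means was Penk, Ebi3, Fgl2, Il10 and Areg. Il10 and Areg overlapped in both genotypes, and Ebi3 and Fgl2 overlapped in CD18Foxp3 Treg. After stimulation Il10 stood in the next place after Penk, without overlap with either neighbour, and was followed by Ebi3, Fgl2 and Areg. Fgl2 and Areg then overlapped in both genotypes, and Ebi3 and Fgl2 did so in CD18wt Treg.

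**Figure D1:**
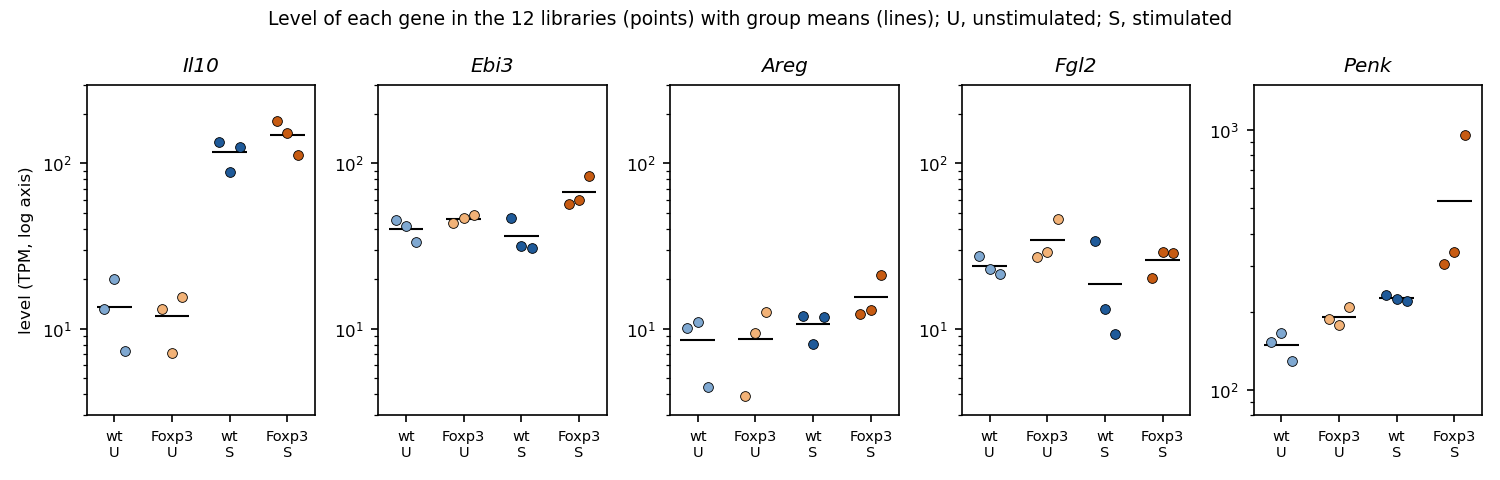
Level of each gene in TPM (log axis) in the 12 libraries, shown as points, with the mean of each group as a line. U is unstimulated and S stimulated, wt is CD18wt and Foxp3 is CD18Foxp3, and the Penk panel has its own range. Il10 separates by stimulation, and a single stimulated CD18Foxp3 library at 961 TPM stands above all others for Penk.

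Of the 5 genes, only Il10 passed the threshold in any comparison as tested with edgeR's quasi-likelihood test, and it did so with stimulation in both genotypes. Other settings added Fgl2 or Penk with stimulation. The threshold was a 1.5-fold difference together with an adjusted p, over all genes tested, no larger than 0.01. Stimulation moved much of the transcriptome. It changed 33.6% of the 11930 genes tested in CD18wt Treg, 18.7% of them upward and 14.9% downward, and 38.6% of 12019 genes in CD18Foxp3 Treg, 20.9% upward and 17.6% downward. Against that background, 1 of 5 genes was called in each genotype. The genotypes differed in 0.135% of 11829 genes without stimulation, that is 16 genes, and in 0% of 11930 genes with it, where 583 genes had an unadjusted p under 0.05 and DESeq2 called 22. The 16 calls became 44 without replicate 3 of unstimulated CD18wt, and 0 to 2 without any other unstimulated library. None of the 5 genes was among these calls. The interaction of genotype and stimulation was called in 0% of 12636 genes, with 485 at an unadjusted p under 0.05 and 1 called by DESeq2, which was none of the 5.

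Marker lists of other cells also moved with stimulation. The 6 B cell markers summed to between 33.7 and 39.2 TPM without and between 10.8 and 21.5 TPM with stimulation in CD18wt Treg. In CD18Foxp3 Treg they summed to between 27.3 and 35.4 and between 9.48 and 13.2 TPM, led by Cd79b while Ms4a1 and Pax5 stayed under 1 TPM in every library. The 6 markers of cytotoxic lymphocytes, led by Cd8b1 and with no exon reads of Ncr1, summed to between 35.5 and 49.8 TPM without and between 14.6 and 22.6 TPM with stimulation in CD18wt Treg. In CD18Foxp3 Treg these sums were between 40.2 and 51.4 and between 19.8 and 31.3 TPM. The 5 plasma cell markers rose in sum (58.7 to 72.3 TPM without, 127 to 165 TPM with), nearly all of it Xbp1, with Mzb1 at 0 to 1.05, Tnfrsf17 at 0 to 0.479, Sdc1 at 0 to 3.38 and Jchain at 0 to 4.76 TPM. Of these Sdc1 rose in CD18Foxp3 Treg (2.68, adjusted p = 0.00519, edgeR), with a similar value that missed the threshold in CD18wt Treg (2.87, adjusted p = 0.0648). Jchain leaned lower in CD18wt Treg (−3.13, adjusted p = 0.0138). The 11 myeloid markers, mostly Cst3, summed to 123 to 211 TPM and overlapped between cultures, although Lyz2 fell in CD18wt Treg from 8.35 to 0.923 TPM (log2 fold change −3.56, adjusted p = 0.00489, edgeR). The 6 erythroid markers summed to between 5.53 and 58.1 TPM without and between 0.234 and 0.667 TPM with stimulation in CD18Foxp3 Treg. In CD18wt Treg these sums were between 1.83 and 10.2 and between 0.725 and 4.04 TPM, which overlapped. Hba-a2 fell in CD18Foxp3 Treg (log2 fold change −6.10, adjusted p = 0.00225, edgeR), although only 7.45% of its exon reads over the 12 libraries were placed uniquely. Its highest level, 25.5 TPM, was in replicate 2 of unstimulated CD18Foxp3, with 4.62 TPM in the next library. The part of such cells in the results for the 5 genes was not tested.

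**Figure D2:**
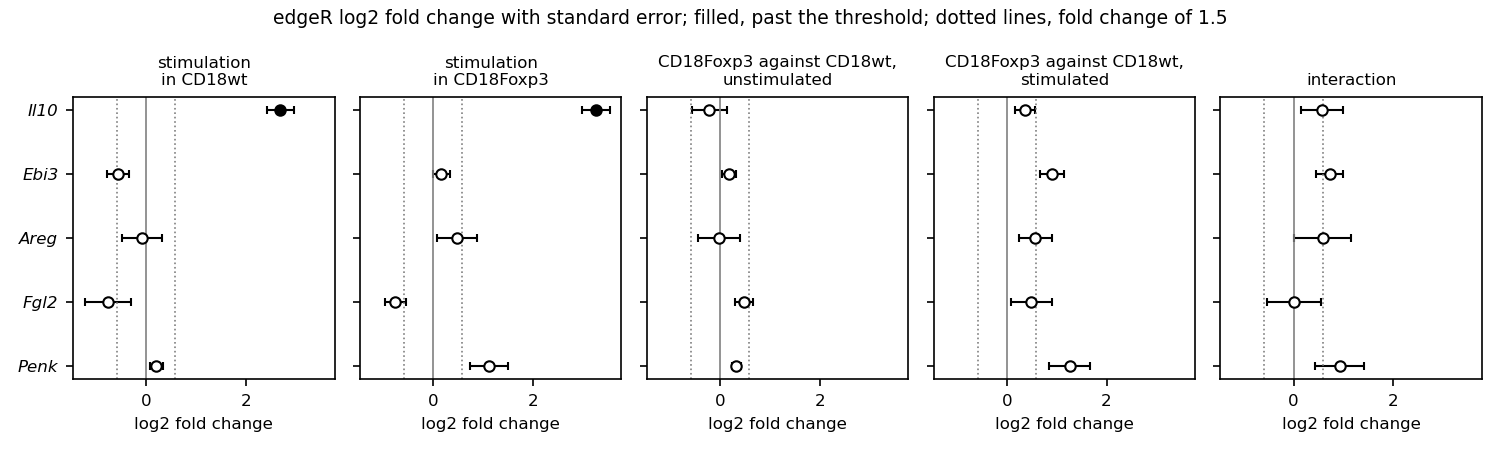
Log2 fold change of each gene with its standard error in the 4 comparisons and the interaction, from edgeR. Filled circles passed the threshold and dotted lines mark a fold change of 1.5. Il10 with stimulation (2.69 in CD18wt and 3.26 in CD18Foxp3 Treg) holds the only filled circles.

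Il10 was raised by stimulation in every library. Its exon reads were 109, 177 and 39 in unstimulated and 682, 671 and 854 in stimulated CD18wt Treg (replicates 1 to 3). In CD18Foxp3 Treg they were 123, 54 and 127 without and 1492, 1112 and 749 with stimulation. The groups were far apart, since the lowest stimulated library (89.2 TPM) lay above the highest unstimulated library (20 TPM). The mean rose 8.66-fold in CD18wt and 12.4-fold in CD18Foxp3 Treg on the TPM scale. With TMM scaling the log2 fold changes were 2.69 (SE 0.27, adjusted p = 9.3e-06) and 3.26 (SE 0.28, adjusted p = 1.8e-05, edgeR). The call held under all alternatives and with each library left out, with adjusted p of at most 2.1e-04 in CD18wt and 2.5e-04 in CD18Foxp3 Treg. The size of the rise did not differ detectably between genotypes (interaction 0.57, SE 0.42, adjusted p = 0.987). With a library left out the interaction was 0.2 to 0.81.

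Between genotypes Il10 overlapped in both cultures. Unstimulated libraries stood at 13.1, 20 and 7.33 TPM in CD18wt and 13.2, 7.15 and 15.6 TPM in CD18Foxp3 Treg. Stimulated libraries stood at 135, 89.2 and 126 TPM in CD18wt and 180, 153 and 112 TPM in CD18Foxp3 Treg. The log2 fold changes between genotypes were −0.21 (SE 0.36, adjusted p = 0.907) and 0.37 (SE 0.20, adjusted p = 0.998, edgeR). The unstimulated difference turned to 0.18 without replicate 2 of CD18wt, the library with the highest unstimulated level, and the stimulated difference was also 0.18 without replicate 1 of CD18Foxp3.

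Exon and intron reads of Il10 moved apart with stimulation. Introns gave 52.0%, 30.6% and 36.1% of the Il10 gene reads in unstimulated CD18wt and 37.9%, 55.0% and 38.6% in unstimulated CD18Foxp3 Treg. After stimulation the shares were 11.7%, 10.9% and 12.1% in CD18wt and 10.8%, 11.6% and 14.1% in CD18Foxp3 Treg. No stimulated library reached the unstimulated range (exact two-sided permutation p = 0.1 in each genotype, the smallest that 3 against 3 libraries can give). The same held for 4.68% of 10711 tested genes with at least 10 reads in each library in CD18wt and 11% of 11035 such genes in CD18Foxp3 Treg. Relative to all exon reads of a library, intron reads of Il10 were 1.47-fold higher after stimulation in CD18wt and 1.99-fold higher in CD18Foxp3 Treg, while exon reads were 7.50-fold and 10.9-fold higher. For all genes together introns made up 3.32% to 5.99% of reads and the stimulated range overlapped the unstimulated range.

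Areg also had a lower intron share after stimulation, while its exon counts did not pass the threshold. Its intron share was 26.7% to 54.1% in unstimulated CD18wt and 43.5% to 58.5% in unstimulated CD18Foxp3 Treg, against 12.5% to 21.1% and 12.9% to 28.0% after stimulation (exact permutation p = 0.1 in each genotype). Intron shares were likewise lower without overlap in 4.68% of genes tested in CD18wt and 11% in CD18Foxp3 Treg. The intron reads of Areg themselves numbered 92, 100 and 8 in unstimulated and 8, 15 and 12 in stimulated CD18wt Treg. They were 48, 56 and 73 without and 37, 13 and 20 with stimulation in CD18Foxp3 Treg. Relative to all exon reads, intron reads of Areg after stimulation were 0.196 and exon reads 1.08 of the unstimulated level in CD18wt Treg, and 0.379 and 1.58 in CD18Foxp3 Treg. Replicate 3 of unstimulated CD18wt, the shallowest library, thus lay within the stimulated range in number and above it in share. The intron share of Ebi3, from 0 to 17 reads in a library, was higher after stimulation in CD18wt Treg without overlap (0 to 2.48% against 4.13% to 4.59%, exact permutation p = 0.1), as was that of 19.7% of the same genes. In CD18Foxp3 Treg it was 0 to 2.17% without and 0.955% to 3.74% with stimulation, which overlapped. The intron share of Fgl2 was 0 to 1.64%, and that of Penk (0.581% to 5.47%) overlapped between all groups compared.

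**Figure D3:**
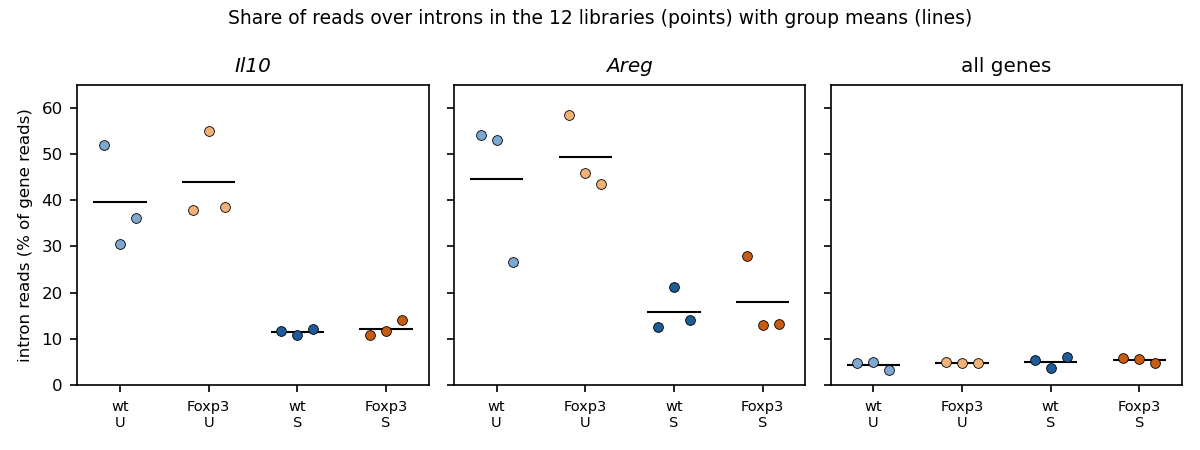
Intron reads as a percentage of all gene reads for Il10, Areg and all genes together, in the 12 libraries (points) with group means (lines). For Il10 and Areg every unstimulated library lies above the stimulated libraries of its genotype, whereas the share over all genes stays between 3.32% and 5.99%.

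Ebi3 ranked first of the 5 genes by p between the genotypes after stimulation. It held 208, 209 and 182 exon reads in stimulated CD18wt and 415, 386 and 494 in stimulated CD18Foxp3 Treg, or 46.8, 31.6 and 30.6 against 56.8, 60.2 and 83.6 TPM. The lowest CD18Foxp3 library therefore lay above the highest CD18wt library, as it did for 5.02% of all genes tested. The mean was 1.84-fold higher in CD18Foxp3 Treg on the TPM scale, and the log2 fold change was 0.90 (SE 0.24, unadjusted p = 0.00267, adjusted p = 0.601, edgeR). By unadjusted p Ebi3 ranked 53 among 11930 genes, and it did not pass the threshold under any alternative (adjusted p 0.0315 to 0.847) or with any library left out (log2 fold change 0.70 to 1.10). Counting only uniquely placed reads gave 0.88. Whether the reads left out lay in the stretch shared with Gm16712 was not tested.

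Without stimulation the genotypes overlapped in Ebi3, at 45.4, 42.0 and 33.5 TPM in CD18wt and 43.7, 46.9 and 48.5 TPM in CD18Foxp3 Treg (log2 fold change 0.18, SE 0.14, adjusted p = 0.757, edgeR). This value was 0.1 to 0.26 with a library left out. With stimulation, the log2 fold change was −0.56 in CD18wt Treg (SE 0.22, adjusted p = 0.0507) and 0.16 in CD18Foxp3 Treg (SE 0.17, adjusted p = 0.45). Both values moved with the scaling, to −0.16 (adjusted p = 0.491) and 0.50 (adjusted p = 0.0249) on the log2(TPM + 1) scale, and the levels overlapped between cultures in CD18wt Treg. Under TMM scaling the value of 0.16 became −0.04 without replicate 3 of stimulated CD18Foxp3 Treg. The difference between these responses was 0.72 (SE 0.28, unadjusted p = 0.0214, adjusted p = 0.987 for the interaction).

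Areg, the growth factor, was the least abundant and carried the widest counting error, with 22 to 131 exon reads in a library. In stimulated Treg it stood at 12, 8.03 and 11.8 TPM in CD18wt and 12.3, 13.0 and 21.1 TPM in CD18Foxp3 mice. These groups did not overlap, and 5.02% of all genes tested were likewise higher in CD18Foxp3 Treg without overlap. The levels of 12 and 12.3 TPM were nearly equal, and the log2 fold change was 0.57 (SE 0.33, adjusted p = 0.998, edgeR). Without replicate 3 of CD18Foxp3 it was 0.28. In unstimulated Treg it stood at 10.1, 10.9 and 4.46 TPM in CD18wt and 3.92, 9.42 and 12.6 TPM in CD18Foxp3 mice, each group thus holding a library far below its others (log2 fold change −0.02, SE 0.43, adjusted p = 0.995). Changes with stimulation were −0.09 (SE 0.40, adjusted p = 0.869) in CD18wt and 0.48 (SE 0.41, adjusted p = 0.335) in CD18Foxp3 Treg. The former had no stable sign, at 0.10 with total-count scaling and 0.35 on the log2(TPM + 1) scale. The latter was 0.86 on the log2(TPM + 1) scale, 0.13 and 0.83 without replicates 1 and 3 of unstimulated and 0.19 without replicate 3 of stimulated CD18Foxp3 Treg.

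Fgl2 leaned lower after stimulation without reaching the threshold. Its exon reads were 662, 590 and 328 in unstimulated and 494, 286 and 180 in stimulated CD18wt Treg, which gives 27.6, 23.1 and 21.3 against 33.8, 13.2 and 9.22 TPM. Replicate 1 of stimulated CD18wt was thus the highest of these 6 libraries while the others of its group were the lowest. The log2 fold change was −0.77 (SE 0.46, adjusted p = 0.213, edgeR), and without that library it was −1.47 (adjusted p = 6.1e-04), which passes. Without replicate 3 of stimulated CD18wt it was −0.45 (adjusted p = 0.253). In CD18Foxp3 Treg the levels were 27.0, 29.1 and 46.3 TPM without and 20.2, 28.9 and 28.7 TPM with stimulation. There the log2 fold change was −0.76 (SE 0.21, adjusted p = 0.0127), and the call was made by DESeq2 (adjusted p = 0.00142), with upper-quartile normalization (adjusted p = 0.00816), with a replicate block (−0.74, adjusted p = 0.00125), without a filter on low counts (adjusted p = 1.7e-05) and at a threshold of 0.05. The change was −0.36 (adjusted p = 0.206, limma) on the log2(TPM + 1) scale and −0.50 without replicate 3 of unstimulated CD18Foxp3 Treg, and a fit over all 12 libraries gave an adjusted p of 0.113. Between genotypes the log2 fold changes were 0.48 (SE 0.18, adjusted p = 0.415) without and 0.49 (SE 0.41, adjusted p = 0.998) with stimulation. Under the alternatives the unstimulated value was 0.44 to 0.50, less than 1.5-fold, with an adjusted p as low as 0.00698. It was 0.22 without replicate 3 of unstimulated CD18Foxp3. The stimulated value was 1.18 and 0.15 without replicates 1 and 3 of stimulated CD18wt Treg, and none of these passed the threshold.

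Penk, the opioid precursor, was higher in every CD18Foxp3 library than in every CD18wt library of the same culture. So were 8.74% of all genes tested without stimulation and 5.02% with it. Without stimulation Penk held 1590, 1819 and 856 exon reads (153, 165 and 129 TPM) in CD18wt and 2196, 1672 and 2118 (188, 178 and 208 TPM) in CD18Foxp3 Treg. The log2 fold change of 0.33 (SE 0.09, unadjusted p = 0.00379, adjusted p = 0.208, edgeR) was small and did not pass. With stimulation it held 1458, 2096 and 1857 reads (232, 223 and 220 TPM) in CD18wt and 3161, 3081 and 8044 reads (305, 339 and 961 TPM) in CD18Foxp3 Treg. The log2 fold change was 1.26 (SE 0.41, unadjusted p = 0.0146, adjusted p = 0.902). Replicate 3 of stimulated CD18Foxp3 Treg set the size of this difference, since without it the log2 fold change was 0.52.

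The same library shaped the response of Penk to stimulation. In CD18Foxp3 Treg the log2 fold change was 1.12 (SE 0.38, adjusted p = 0.031) with and 0.38 without it. It passed at a threshold of 0.05 and in the fit without a filter on low counts (1.13, adjusted p = 1.2e-15). The interaction was 0.92 (SE 0.50, adjusted p = 0.987) with and 0.18 without it. Under the alternatives the interaction was 0.68 to 0.94, with an adjusted p as low as 0.0114. In CD18wt Treg the change was 0.20 (SE 0.13, adjusted p = 0.217, edgeR). On the log2(TPM + 1) scale it was 0.60 (adjusted p = 0.00194, limma), which passes. That library was also the highest of the 12 for Areg and Ebi3 and for 15 other genes among 53 members and listed genes that reached 5 TPM. These included Pcsk1 (10.2 TPM, next highest 3.44), a protease that cleaves prohormones, and Cpe (13.5 TPM, next highest 8.23), which trims the cleaved peptides. The share of all genes that stood highest in this library was not counted, so these 53 chosen genes do not describe it as a whole. The part of this library in the Penk results beyond the values given was not tested.

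Counted by levels that did not overlap, 2 of the 5 genes (Il10 and Penk) were higher after stimulation in CD18wt Treg and 3 (Il10, Ebi3 and Penk) in CD18Foxp3 Treg. The same held for 47.8% and 47.9% of all genes tested. Between genotypes Penk was higher without overlap in unstimulated CD18Foxp3 Treg, as were 8.74% of all genes. In stimulated CD18Foxp3 Treg this held for Ebi3, Areg and Penk, and for 5.02% of all genes. None of the 5 was lower without overlap in any of these comparisons. Each of these 3-against-3 comparisons gave an exact permutation p of 0.1, the smallest possible.

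The values with stimulation moved with the scale. On the log2(TPM + 1) scale the median gene rose by 0.36 in CD18wt and 0.31 in CD18Foxp3 Treg, and with total-count scaling by 0.22 and 0.19, whereas TMM left it at 0.02 and 0.01. Of the genes called with stimulation, 55.7% were higher under TMM and 70.4% with total-count scaling in CD18wt, and 54.3% and 66.5% in CD18Foxp3 Treg. On the TPM scale, where the test was also another (limma), 80.7% and 75.9% were higher. From TMM to the TPM scale Penk moved from 0.20 to 0.60 in CD18wt Treg, and Ebi3 from 0.16 to 0.50 in CD18Foxp3 Treg, much as the median gene did. Il10 rose under each, at 3.10 and 3.56 on the log2(TPM + 1) scale.

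**Figure D4:**
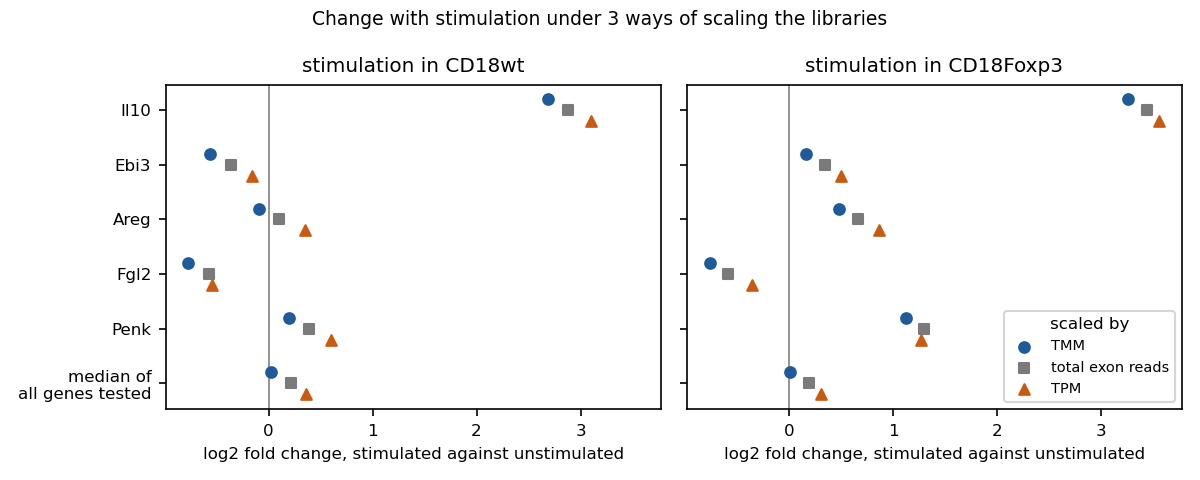
Log2 fold change with stimulation of the 5 genes and of the median gene tested, with libraries scaled by TMM (circles), by total exon reads (squares) or as TPM (triangles). Each gene moves to the right with the median gene from TMM to total reads, and Areg in CD18wt Treg crosses 0.

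Receptors and partners of these products were read from lists of related genes. Il10rb fell with stimulation in CD18wt (log2 fold change −1.21, SE 0.17, adjusted p = 7.7e-05) and CD18Foxp3 Treg (−1.0, SE 0.10, adjusted p = 3.7e-05, edgeR), from 56.1 to 32.5 and from 58.3 to 37.4 TPM. Of the Il10rb exon reads over the 12 libraries, 69.2% were placed uniquely. Il10ra fell past the threshold in CD18wt Treg alone (−0.81, adjusted p = 0.00922), against −0.28 (adjusted p = 0.237) in CD18Foxp3 Treg, and the difference between these had an adjusted p of 0.987. The other 4 genes of this list, relatives of Il10 such as Il22, had too few reads to be tested. Il22 held 58 reads in replicate 3 of stimulated CD18wt Treg and 0 to 10 in every other library, and 56.6% of these reads were placed uniquely.

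The known partners of the Ebi3 product had few exon reads. Il12a, the second chain of IL-35, had 1 exon read in a single library, and Il27, that of IL-27, had 2 in a single library. Il23a, also described as a partner, had 4 to 16 exon reads in stimulated CD18Foxp3 libraries and at most 4 in the others, and Il12b, which pairs with Il12a in IL-12, had none. A count of 0 allows up to 3 exon reads in a library. Of the receptor chains, Il12rb1 rose from 22.8 to 130 TPM in CD18wt and from 27.0 to 114 TPM in CD18Foxp3 Treg (log2 fold change 2.12 and 1.70, adjusted p = 3.2e-07 and 1.9e-04). Il12rb2 rose in CD18Foxp3 Treg (3.08, adjusted p = 0.00236) from a very low level of 0.119 to 1.37 TPM, with a similar value that missed the threshold in CD18wt Treg (2.57, adjusted p = 0.0325). Il27ra fell in both genotypes (−1.16 and −1.02), as did the shared signal transducer Il6st (−0.98 and −0.83). Of 4 tested genes, 1 rose and 2 fell in CD18wt and 2 rose and 2 fell in CD18Foxp3 Treg, where 18.7% and 20.9% of all genes tested rose and 14.9% and 17.6% fell.

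Among genes of the EGF system, Hbegf and Rhbdf2 passed the threshold with stimulation. Hbegf, another EGF receptor ligand, rose from 1.14 to 10.1 TPM in CD18wt and from 0.959 to 13.0 TPM in CD18Foxp3 Treg (log2 fold change 2.70, SE 0.50, adjusted p = 5.7e-04, and 3.42, SE 0.54, adjusted p = 6.0e-04). Rhbdf2, which helps the sheddase ADAM17 mature, rose as well (1.09 and 0.83), while Adam17 itself had 0.10 and 0.20 (adjusted p = 0.549 and 0.148). Adam10, which encodes another sheddase, had −0.51 (adjusted p = 0.00445) and −0.40 (adjusted p = 0.0279), a fold change under 1.5 in each. In all 2 of 5 tested genes rose in CD18wt and 2 of 6 in CD18Foxp3 Treg, and none fell, against 18.7% and 20.9% of all genes tested that rose. Ereg, Epgn and Erbb4 had no exon reads in any library.

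For Fgl2, the receptor genes Fcgr2b (0 to 0.12 TPM) and Fcgr3 (0 to 1.04 TPM) and the relative Fgl1 (0 to 0.527 TPM) had too few reads to be tested. Among genes of the opioid system, none of the tested genes passed with stimulation, 3 in CD18wt and 2 in CD18Foxp3 Treg, where 33.6% and 38.6% of all genes did. Pcsk1 stood at 0.422, 0.371 and 0.615 TPM in CD18wt and 1.03, 1.21 and 3.13 TPM in CD18Foxp3 Treg without stimulation. With it the levels were 2.45, 0.964 and 1.11 TPM in CD18wt and 3.44, 3.37 and 10.2 TPM in CD18Foxp3 Treg, so that replicate 3 set much of both CD18Foxp3 means. The genotypes did not overlap, as 8.74% and 5.02% of all genes were higher without overlap, and the log2 fold changes were 1.90 (SE 0.50, adjusted p = 0.172) and 1.95 (SE 0.50, adjusted p = 0.601, edgeR). The opioid receptor Oprd1, the neprilysin gene Mme and the dynorphin precursor Pdyn had no exon reads.

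**Figure D5:**
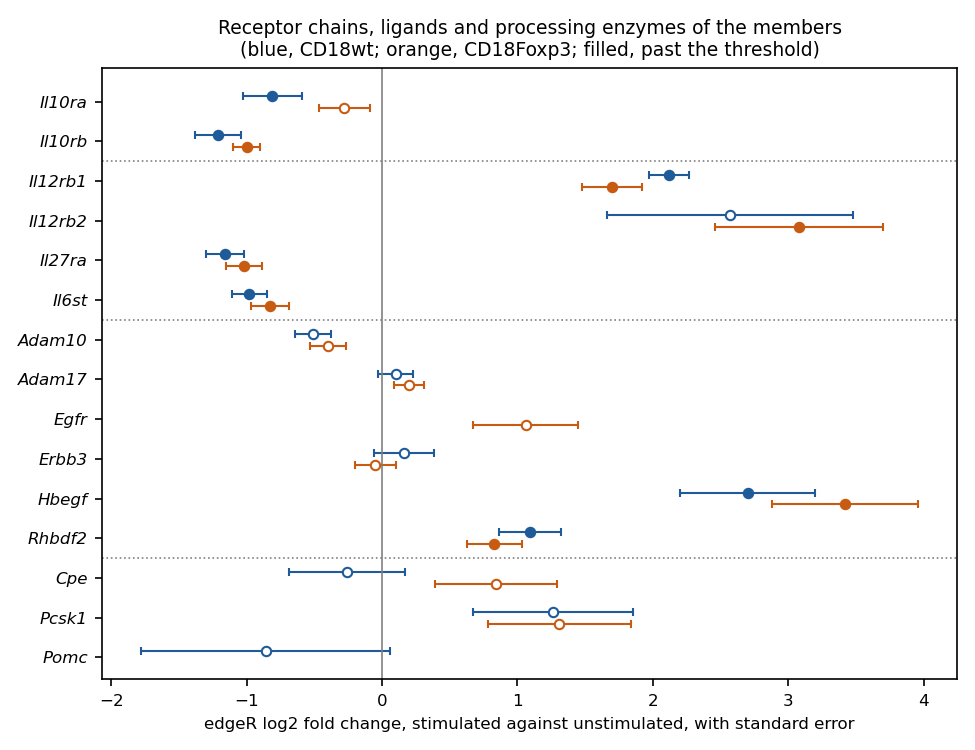
Log2 fold change with stimulation, with its standard error, of tested genes listed with Il10, Ebi3, Areg and Penk, from top to bottom in that order and separated by dotted lines. Blue is CD18wt, orange is CD18Foxp3, and filled circles passed the threshold. Il12rb1 and Hbegf rose and Il10rb, Il27ra and Il6st fell in both genotypes.

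Transcription factors known to act on Il10 in T cells were listed for comparison. Of 10 tested, 3 rose in each genotype and 1 fell in CD18wt Treg, with medians of −0.07 and −0.09 against 0.02 and 0.01 over all genes tested. Of all genes, 18.7% and 20.9% rose and 14.9% and 17.6% fell. Irf4 rose from 27.8 to 467 TPM in CD18wt and from 21.0 to 416 TPM in CD18Foxp3 Treg (log2 fold change 3.67 and 3.94, adjusted p = 6.2e-08 and 1.3e-06, edgeR). Prdm1 (0.73 and 0.95) and Nfil3 (0.68 and 0.72) rose in both genotypes. Maf fell in CD18wt Treg (−1.46, adjusted p = 6.7e-05), from 107 to 52.2 TPM, and had −0.50 (adjusted p = 0.0031) in CD18Foxp3 Treg, a fold change under 1.5, with an adjusted p of 0.847 for the difference between genotypes.

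Among 6 genes described with Areg in tissue Treg, Il18r1 alone passed the threshold between genotypes, in unstimulated Treg, as did 0.135% of all genes tested. There it stood at 84.6 TPM in CD18Foxp3 and 42.1 TPM in CD18wt Treg (log2 fold change 0.98, SE 0.09, adjusted p = 0.00368, edgeR), and the stimulated value was also 0.98 (SE 0.26, adjusted p = 0.627). The call was lost in the fit over all 12 libraries, on the log2(TPM + 1) scale, and without replicate 2 of CD18wt or replicate 1 or 2 of CD18Foxp3, where no gene was called as higher. The median log2 fold change of the list between genotypes was 0.97 without and 1.05 with stimulation, against 0.00 over all genes tested. Gata3 (0.09) and Rora (0.14) were nearer to 0 without stimulation, and replicate 3 of stimulated CD18Foxp3 Treg was the highest library for 4 of the 6 genes (Il1rl1, Gata3, Rora and Pparg). How often that library was the highest over all genes was not counted. Il1rl1, the receptor of IL-33, stood at 11.8 ± 3.96 TPM in CD18Foxp3 and 4.98 ± 0.451 TPM in CD18wt Treg without stimulation (1.21, SE 0.20, adjusted p = 0.032), and at 14.0 ± 6.72 and 4.39 ± 0.797 TPM with it (1.69, SE 0.31, adjusted p = 0.216; SD, n = 3 each). With stimulation, Pparg rose (1.92, adjusted p = 0.0023) and Il18r1 fell (−0.86, adjusted p = 7.4e-04) in CD18Foxp3 Treg. In CD18wt Treg their values were 1.76 (adjusted p = 0.0398) and −0.86 (adjusted p = 0.0183), and the interaction was 0.16 (adjusted p = 0.994) for Pparg and 0.00 for Il18r1.

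The levels of other genes followed these 5 over the 12 libraries, which differ in depth and condition, so the following correlations of log2(TPM + 1) are descriptions. Among 9228 genes with a mean of at least 5 TPM, the closest to Il10 were Dsn1, Ccp110 and Necap1 (Pearson r = 0.99 each). Closest to Ebi3 were Tnfsf10 (0.93), Gata3 (0.93) and Il18rap (0.91), and closest to Penk were Fgf16 (0.94), Il1r2 (0.91) and Zfp365 (0.91). Genes close to Areg included Ift27 (0.85) and Id2 (0.83), and Fgl2 was nearest to Prr13 (0.90), Tmem254b (0.90) and Ly96 (0.89), where copies of Tmem254b could split its reads. Among the 5 genes themselves r was highest for Ebi3 with Penk (0.77) and lowest for Il10 with Fgl2 (−0.33).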

How the data were processed

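RNA-Seq libraries of the 12 samples were grouped by the genotype and treatment in the labels. The authors trimmed 59-base single reads, aligned them to GRCm38 and counted them with CLC Genomics Workbench at default settings, after poly(A) selection and 15 PCR cycles. Each deposited table gives unnormalized read counts for exons, introns and the whole gene, and its expression value equals the total exon count. TPM were computed from the exon counts and exon lengths, and differ from the TPM the authors deposited by at most 0.0062%. Exon reads numbered 10665174 to 19005482 per library. Replicates differed by more than counting error, with a chi-square per gene of 5.88 to 59.7 between libraries of a group. Limits for genes without reads cover counting error only.

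Counts were tested with edgeR 4.0.16 in R 4.3.3 (filterByExpr with a minimum count of 10, TMM, robust quasi-likelihood F-test, Benjamini-Hochberg adjustment over all genes tested). Each comparison used its own 6 libraries and the interaction all 12. The thresholds were those the study used. SE is the size of the log2 fold change divided by the square root of F. Levels were also compared, as log2(TPM + 1), by exact permutation of the libraries (two-sided). The edgeR test of the 4 comparisons was also run on simulated counts, but the interaction and the other methods were not. Alternatives were DESeq2 1.42.0, upper-quartile normalization, a stricter filter (every library with 10 or more counts) or none, counts of uniquely placed reads, limma 3.58.1 with a pseudocount of 1 or 0.1 on log2 TPM, 1 fit over all libraries, a replicate block, a threshold of 0.05 on the adjusted p, and leaving out each library. Total-count scaling was added after seeing the data.

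The members and the 13 lists of 98 related and marker genes were chosen with earlier results of these data known. Named are the members, genes of the lists, and the 3 genes closest to each member by correlation over the libraries and by correlation of deviations from group means. A few named by this rule are left out of the text. Promoters are from RefSeq (GRCm38.p6), and shared words from GENCODE transcripts of GRCm38. Python 3.11.15 was used.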

Additional observations from a re-analysis of the deposited data

How the results depend on the processing

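Il10 was called with stimulation in both genotypes under every alternative, and none of the 5 genes was called between genotypes or in the interaction under any. With stimulation in CD18wt Treg, 2 genes instead of 1 were called on the log2(TPM + 1) and log2(TPM + 0.1) scales (Il10 and Penk), and 1 to 2 with a library left out, where the added gene was Fgl2 without replicate 1 of stimulated CD18wt. In CD18Foxp3 Treg, 2 instead of 1 were called by DESeq2, with upper-quartile normalization and with a replicate block (Il10 and Fgl2), and 3 without a filter or at an adjusted p of 0.05 (Il10, Fgl2 and Penk). The cause of these shifts was not tested. Some uncalled values changed sign. The change of Areg with stimulation in CD18wt Treg was 0.35 and 0.40 on these TPM scales, 0.10 with total-count scaling and −0.36 to 0.10 with a library left out. Leaving out a library also gave −0.04 to 0.25 for Ebi3 with stimulation in CD18Foxp3 Treg, and, between unstimulated genotypes, −0.46 to 0.18 for Il10 and −0.36 to 0.34 for Areg. The interaction of Fgl2 was −0.01 with total-count scaling and −0.33 to 0.70 with a library left out.

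Replicate numbers were not shown to pair the libraries. Deviations of same-numbered unstimulated and stimulated libraries correlated at 0.10, −0.02 and −0.09 in CD18wt and 0.14, 0.07 and 0.15 in CD18Foxp3 Treg. As a hint from the data alone, every library correlated best with its own number in CD18Foxp3 but not in CD18wt Treg. With the replicate block, 3588 genes instead of 4013 were called with stimulation in CD18wt and 4899 instead of 4636 in CD18Foxp3 Treg. Between unstimulated genotypes DESeq2 called 86 genes, the fit without a filter 134 and the block 41, against 16, while 14 and 13 were called with upper-quartile normalization and total-count scaling, 1 and 5 on the log2(TPM + 1) and log2(TPM + 0.1) scales, 33 at an adjusted p of 0.05, and 0 with all libraries in 1 fit. In a comparison of genotypes the block joins libraries of different mice by number alone. Deviations of same-numbered unstimulated libraries of the 2 genotypes correlated at 0.00, −0.01 and 0.08. Between stimulated genotypes and in the interaction the fit without a filter called 61 and 31 genes, against 0. Counts of 22 to 131 reads limit Areg, and 3 libraries per group limit every comparison.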

Other observations

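Within groups, deviations from the group means, which do not contain the difference between conditions, were followed most closely by other genes than those above. The highest correlations over the 12 libraries were with Ccdc186, Rbsn and Zc3hav1 for Il10 (Pearson r = 0.93, 0.93 and 0.92), Plcl1, Ttc39c and Rhof for Ebi3 (0.95, 0.94 and 0.94), and Phf19, Arfip2 and Rexo5 for Areg (0.91, 0.89 and 0.87). For Fgl2 they were Kiz, Itm2b and Capn2 (0.96, 0.93 and 0.93), and for Penk Pold4, Wdr1 and Cfap36 (0.91, 0.90 and 0.89). These are the highest of 9228 genes and are descriptions only.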
